A study of Mus musculus with 11 samples.

Results

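The comparison set germ cells of the mouse fetal testis against the other cells of the same gonads at E13.5, counted in days of embryonic age. The E13.5 germ cells (3 arrays) were the GFP-positive cells, and the non-germ cells (2 arrays) the GFP-negative cells, obtained by fluorescence-activated cell sorting on a Pou5f1-GFP reporter, a green fluorescent protein under control of the pluripotency gene Pou5f1. Both fractions came from male gonads of the same cross, of (CBA/CaJ X C57BL/6J)F16+ mice with Hsd:ICR(CD-1) mice, with no treatment and no mutation named apart from the reporter. The replicates are labelled biological, but the labels give neither the number of embryos in each nor whether a germ cell and a non-germ replicate of the same number came from the same sort. These are 5 of the series' 11 arrays, the others holding germ cells of E11.5 and E15.5. A probe was used when its detection p-value, the array's own test against background, was below 0.01 on 2 or more of the 5 arrays. This left 19420 of 45281 probes. With 1 probe for each named gene, 10468 genes were tested.

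Germ cells reach the gonad as primordial germ cells that still express the pluripotency network, and in a male gonad they enter mitotic arrest and start the programme that leads to spermatogonia. Around them the somatic cells build the testis: Sertoli cells form cords around the germ cells, fetal Leydig cells make steroids, and interstitial, vascular and blood cells fill the space between. The GFP-negative fraction holds all of these together. A level in it is therefore an average over cell types, and fewer cells of a type cannot be told apart from less RNA per cell.

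All levels below are normalized probe intensities on a log2 scale, so a difference of 1 is a factor of 2, and they compare one gene between the fractions, never 1 gene with another. The lowest value that counted as detected was between 6.08 and 6.38 on the germ cell arrays, against 5.82 and 5.83 on the non-germ arrays. Where no array of a fraction detected a gene, the fold is given as a lower bound against these values, marked as of this probe where another probe of the gene was detected there. Where only some arrays of a fraction detected a gene, their number is given and the difference rests partly on values near background. From 14860 to 16357 probes were detected per germ cell array, against 18018 and 18055 on the non-germ arrays. Pearson r over the genes, themselves no replicates, was 0.978 to 0.986 among germ cell arrays and 0.982 between the non-germ arrays, against 0.649 to 0.675 between the fractions.

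The sort was checked first on the genes that should mark each side. Ddx4, the germ cell RNA helicase, was at 12.67, 12.32 and 12.46 on the 3 germ cell arrays, against 5.33 and 5.36 on the non-germ arrays, where this probe was undetected and another of its probes was not (at least 101-fold higher by this probe; adjusted p = 2.32e-07). Dazl, the germ cell RNA-binding protein, stood at 13.12, 13.02 and 12.76 in germ cells, against an undetected 5.55 and 5.63 in non-germ cells (at least 141-fold higher; adjusted p = 2.32e-07). Pou5f1, whose reporter defined the sort and which is therefore no independent finding, measured 10.86, 10.63 and 10.80 in germ cells, against 5.07 and 4.70 in non-germ cells, undetected there (at least 30.6-fold higher). For these genes every germ cell array lay far above both non-germ arrays.

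On the somatic side, Col3a1, the fibrillar collagen of mesenchyme, was at 4.93, 5.14 and 6.57 in germ cells, against 13.28 and 13.09 in non-germ cells (log2 -7.63 ± 0.44; detected on 1 of 3 germ cell arrays; adjusted p = 3.49e-06). Sox9, the transcription factor that directs Sertoli cell fate, was at 5.01, 6.59 and 8.44 in germ cells, against 11.30 and 12.28 in non-germ cells (log2 -5.11 ± 0.84; detected on 2 of 3 germ cell arrays; adjusted p = 0.000952). The fractions did not overlap for either gene, but the germ cell arrays were spread for both, and germ cell replicate 3 was the highest of them. Its mean over 19 Sertoli cell markers was also the highest among germ cell arrays (5.76, 5.93 and 6.39, against 8.25 and 8.69 in non-germ cells), and the part of this in the other results was not tested.

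**Figure D1:**
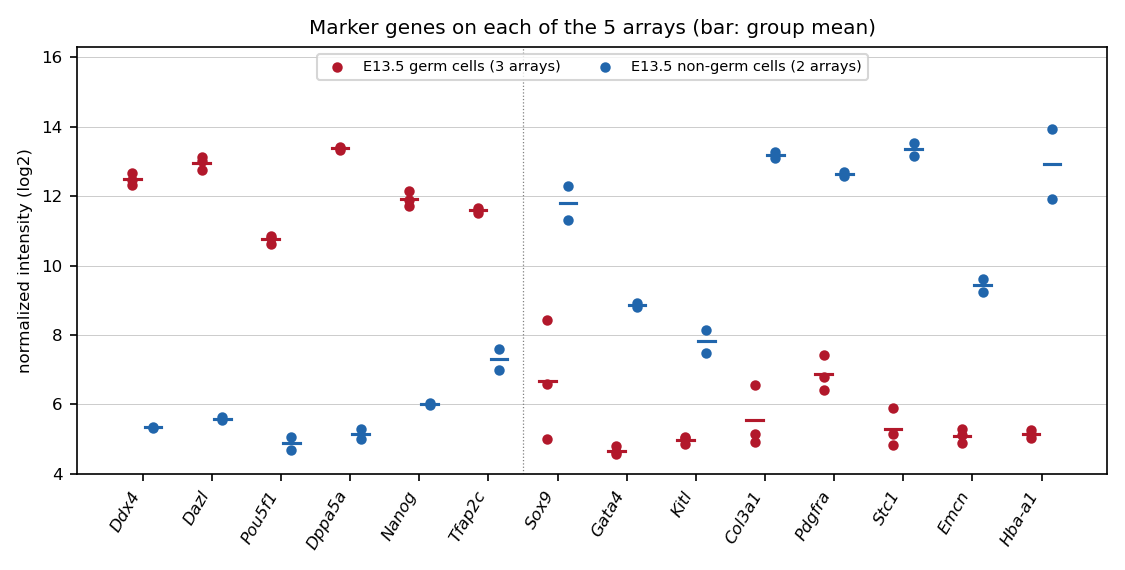
Normalized log2 intensity (vertical axis) of 14 marker genes on each of the 5 arrays, with E13.5 germ cells in red to the left and E13.5 non-germ cells in blue to the right at each gene, and a bar at each group mean. Germ cell genes stand left of the dotted line and somatic genes right of it. Sox9 spreads from 5.01 to 8.44 over the germ cell arrays, whereas Ddx4 stays between 12.32 and 12.67.

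Over the whole array, most genes differed between the fractions. Limma called 3746 genes higher and 3329 lower in germ cells at a Benjamini-Hochberg adjusted p below 0.05, which is 67.6% of the genes tested (35.8% higher and 31.8% lower). With at least a 2-fold difference in addition, 2159 were higher (20.6%) and 2353 lower (22.5%). By the fitted differences 562 genes were higher and 1168 lower by 4-fold or more, and 83 higher and 305 lower by 16-fold or more, which includes genes undetected in one fraction. Among the 7166 genes detected on all 5 arrays, 256 were higher and 300 lower by 4-fold or more, and 7 higher and 30 lower by 16-fold or more. The arrays of the fractions did not overlap for 79% of genes. A gene count for a pathway below has to be read against these percentages, because in this comparison a call is the common outcome.

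The balance of calls depends on scaling and on the filter. Detection on 2 arrays can be met by the non-germ arrays alone; with detection on at least 3 arrays the order of the 2-fold counts turned round, to 2079 higher and 1218 lower. With cyclic loess in place of quantile scaling 41.3% of the calls were higher, against 52.9% as reported, and the median of all genes moved by -0.257. A gene detected in non-germ cells alone passes the filter only through both non-germ arrays, so leaving out either of them removed such genes and left 1566 (without replicate 1) and 1543 (without replicate 2) lower calls. With the probes held as reported, an alternative added after the data were seen, these were 2839 and 2843.

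**Figure D2:**
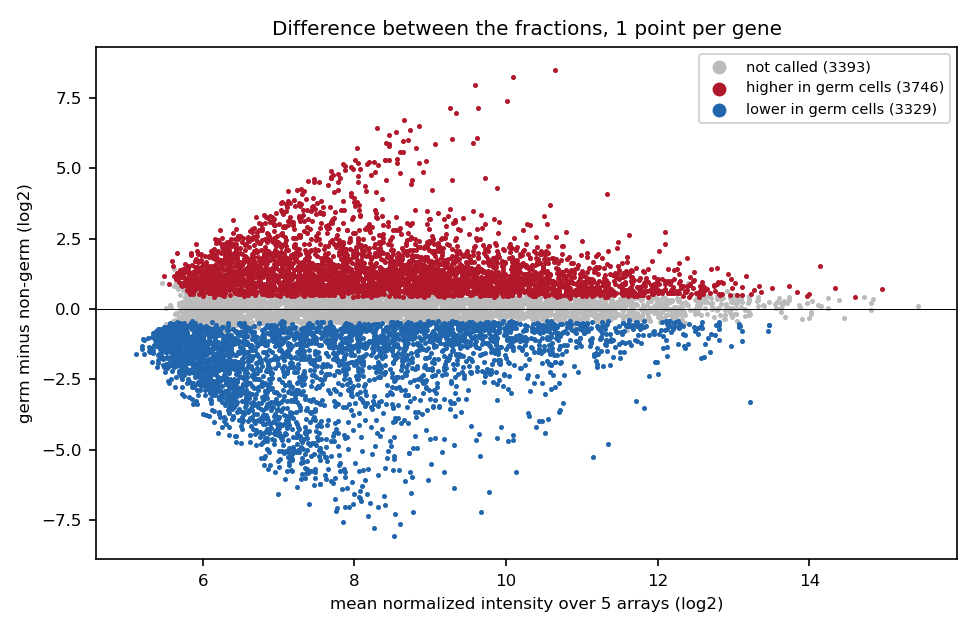
Difference between germ and non-germ cells (vertical axis, log2) against the mean normalized log2 intensity over the 5 arrays (horizontal axis), with 1 point for each of 10468 genes. Red points are the 3746 genes called higher in germ cells and blue points the 3329 called lower. Beyond 4-fold lie 562 red and 1168 blue points, many of them undetected in one fraction.

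Among genes detected on every array of both fractions, the largest rise was that of the pluripotency factor Nanog, at 11.72, 12.15 and 11.89 in germ cells, against 5.98 and 6.05 in non-germ cells (log2 5.91 ± 0.19; adjusted p = 3.27e-07). Elavl2, an RNA-binding protein of the Hu family, was at 11.49, 11.58 and 11.68 in germ cells, against 7.23 and 6.62 in non-germ cells (log2 4.66 ± 0.21). Next came Col9a3, a chain of type IX collagen (log2 4.59 ± 0.24), and the ubiquitin ligase adaptor Kbtbd8, at 10.61, 10.71 and 10.43 in germ cells, against 6.22 and 5.83 in non-germ cells (log2 4.56 ± 0.19). In Nanog, Elavl2 and Kbtbd8 the germ cell arrays lay close together and did not overlap with the non-germ arrays. They were followed by the G protein subunit Gng13 (log2 4.44 ± 0.19) and the germ cell transcription factor Tfap2c (log2 4.29 ± 0.21). Gm2381 (log2 3.89 ± 0.20), the epithelial splicing regulator Esrp1 (log2 3.69 ± 0.20), Dennd2c (log2 3.54 ± 0.16), the desmosomal plakophilin Pkp2 (log2 3.53 ± 0.20) and Ipp (log2 3.50 ± 0.27) completed this group. The methyl-CpG binding gene Mbd2 (log2 4.09 ± 0.31) also belonged to it, but another probe of Mbd2 was called the opposite way, so its direction rests on the probe.

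The largest fall among genes detected on every array was that of Dlk1. Dlk1, an imprinted membrane protein of the Notch ligand family, was at 7.56, 6.40 and 7.61 in germ cells, against 13.61 and 13.73 in non-germ cells (log2 -6.48 ± 0.35; adjusted p = 2.46e-06). Mylk, the myosin light chain kinase, was at 7.20, 7.84 and 8.41 in germ cells, against 13.56 and 13.67 in non-germ cells (log2 -5.80 ± 0.32). The PDGF receptor gene Pdgfra stood at 6.43, 6.79 and 7.41 in germ cells, against 12.71 and 12.58 in non-germ cells (log2 -5.77 ± 0.28). For all 3 the non-germ arrays were nearly equal, the germ cell arrays were more spread, and the fractions did not overlap. Also lower were the imprinted adaptor Grb10 (log2 -5.25 ± 0.28), the growth hormone receptor Ghr (log2 -5.20 ± 0.23), the WNT effector Tcf7l2 (log2 -5.12 ± 0.18), Cdc42ep3 (log2 -5.09 ± 0.17) and the ephrin Efna5 (log2 -4.92 ± 0.17). The transcription factor Gata2 (log2 -4.87 ± 0.21), the IGF binding protein Igfbp5 (log2 -4.79 ± 0.31), the matrix protein Sparc (log2 -4.69 ± 0.37) and Nrep (log2 -4.66 ± 0.16) followed.

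Detection itself split part of the genome between the fractions. On all 3 germ cell arrays and, by any probe, on neither non-germ array, 424 genes (4.05% of those tested) were detected, and 1382 genes (13.2%) on both non-germ arrays and, by any probe, on no germ cell array. Among these the lower bounds were largest for Dppa5a, an RNA-binding protein of pluripotent cells, at 13.33, 13.43 and 13.38 in germ cells, against 5.29 and 5.01 in non-germ cells (at least 188-fold higher). After Dazl came the maternal factor Dppa3, at 12.86, 12.78 and 12.67 in germ cells, against 4.79 and 4.86 in non-germ cells (at least 123-fold higher). The values within each fraction lay close together for both. The ubiquitin ligase Trim71 (at least 78.3-fold higher), Dppa4 (at least 78.2-fold higher) and the male germ cell regulator Nanos2 (at least 49.3-fold higher) came next, with Dppa2 (at least 45.3-fold higher), Mov10l1, a helicase of the piRNA pathway (at least 43.7-fold higher), the chromatin factor Utf1 (at least 38.6-fold higher) and the Tudor gene Tdrd5 (at least 38.6-fold higher).

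In the other direction the hormone stanniocalcin Stc1 was at an undetected 5.16, 4.84 and 5.91 in germ cells, against 13.16 and 13.54 in non-germ cells (at least 143-fold lower). The alpha globin Hba-a1 was at 5.15, 5.02 and 5.26 in germ cells, against 13.94 and 11.93 in non-germ cells (at least 107-fold lower), with replicate 1 the higher of the non-germ arrays. After the collagen chain Col6a1 (at least 84.5-fold lower) and Tbx3, a T-box factor (at least 80.9-fold lower), came Rbms3, which binds RNA (at least 73.1-fold lower), the GTPase Rhoj (at least 73-fold lower), the teneurin Tenm4 (at least 62.1-fold lower), Tril (at least 60.4-fold lower), the transcription factor Nfia (at least 60.2-fold lower) and the protocadherin Pcdh18 (at least 60.1-fold lower).

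The germ cell arrays of the other stages, which the comparison did not use, give a second reading of the same probes. Of the 424 genes detected in E13.5 germ cells alone, 272 were detected on all 3 arrays at E11.5 and 272 on all 3 at E15.5, and 184 on all 6 of them, while 10 were detected on none. Of the 1382 genes detected in non-germ cells alone, 97 were detected on all E11.5 arrays, 243 on all E15.5 arrays and 25 on all 6, and 321 on none. Over all 10468 genes tested, 7671 were detected on all E11.5 arrays, 7738 on all E15.5 arrays and 6821 on all 6, and 423 on none.

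Germline programmes were higher in germ cells nearly throughout. A listed gene was measured only when it passed the detection filter, and one detected in a single fraction passed through that fraction and was bound to differ, so the counts below describe the measured genes and support nothing about the unmeasured ones. Of 25 listed pluripotency regulators, 23 were measured, and 21 rose and 1 fell (median difference log2 5.32, against 0.11 over all genes). Pou5f1, whose reporter defined the sort, is among the 21. The zinc finger factor Sall4 was at 14.24, 13.89 and 13.97 in germ cells, against 5.16 and 5.97 in non-germ cells (log2 8.47 ± 0.26; detected on 1 of 2 non-germ arrays), and the exception was Tbx3. Among 18 measured of 23 listed factors of the piRNA pathway and the Tudor family, which silence transposons in germ cells, 17 rose and 1 fell (median log2 4.03). Ddx4, Mov10l1 and Tdrd5, given above, belong to them, as does the Tudor kinase gene Stk31 at 11.41, 10.67 and 10.69 in germ cells, against 4.75 and 4.74 in non-germ cells (at least 34.2-fold higher). The member that fell, Tdrd3 (log2 -0.56 ± 0.18), had another probe called the opposite way, and its call ended without non-germ replicate 2.

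Of 18 measured among 24 listed RNA-binding proteins with germ cell roles, 15 rose and 1 fell. Lin28a, which blocks let-7 processing, was at least 47.6-fold higher by this probe, and the one that fell was Mex3b (log2 -4.51 ± 0.29; detected on 2 of 3 germ cell arrays). Germ cell transcription factors were 14 higher and 2 lower of 18 measured (24 listed). Dmrt1, a regulator of male germ cells and Sertoli cells alike, was at 10.53, 10.21 and 10.31 in germ cells, against an undetected 5.17 and 5.34 in non-germ cells (at least 23-fold higher). The homeobox gene Rhox5 (log2 4.85 ± 0.22; detected on 1 of 2 non-germ arrays) and the TFIID subunit Taf7l (at least 10.9-fold higher) were higher too. The glucocorticoid target Tsc22d3 (log2 -2.03 ± 0.21) and Bcl6b, which spermatogonial stem cells use (log2 -1.30 ± 0.40), were lower, and the call of Bcl6b ended without non-germ replicate 2.

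Genes of meiotic chromosomes and recombination, which act in meiosis, were higher in these male cells before that stage. Of 32 listed, 21 were measured, and 20 rose and 0 fell (median log2 3.00). The intercellular bridge gene Tex14 was at 11.07, 11.03 and 11.06 in germ cells, against 4.88 and 4.69 in non-germ cells, undetected there (at least 37.5-fold higher). Spo11, which makes the meiotic DNA breaks, stood at 9.66, 10.17 and 9.98 in germ cells, against 5.08 and 5.33 in non-germ cells (at least 17.3-fold higher), and the cohesin Smc1b was at least 12.6-fold higher. In 15 of the 21 neither non-germ array detected the probe used. Stra8, the gene of meiotic entry, did not pass the detection filter.

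The start regions of these genes were read for short motifs. In RefSeq promoters of GRCm38.p6, from 250 bases before to 50 after the first listed start, 8491 of the genes tested (81.1%) had an entry. The palindromic E-box CACGTG was in 7 of 16 promoters of piRNA and Tudor factors (43.8%) in 6 of 18 of the meiotic genes (33.3%), in 4 of 14 of germ cell RNA-binding proteins (28.6%) and in 2 of 15 of pluripotency regulators (13.3%), against 10.4% of all 8491. On the somatic side it was in 2 of 13 HOX promoters (15.4%) and 0 of 18 collagen promoters. It was in 11.3% of the promoters of genes detected in germ cells alone and called higher, and in 6.47% of those detected in non-germ cells alone and called lower. The motif TTCCCGC, in letters the core of an E2F site, was on either strand of 8 of 18 meiotic promoters (44.4%) and 2 of 16 of piRNA and Tudor factors (12.5%), of 1 of 15 of pluripotency regulators (6.67%) and of none of the RNA-binding, HOX and collagen promoters, against 8.88% of all. It was in 10.4% of the promoters of genes detected in germ cells alone and in 6.47% of those detected in non-germ cells alone. A different E-box, CACCTG, was on either strand of 30.4% of 336 promoters of the genes detected in germ cells alone, against 17% of 974 detected in non-germ cells alone and 17.3% of all. By list it was in 31.2% of piRNA and Tudor, 22.2% of meiotic, 33.3% of pluripotency and 28.6% of RNA-binding promoters. HOX promoters had 0% and collagen promoters 11.1%. Of the other motifs, GGGCGG was in 55.1% of promoters of genes detected in germ cells alone, 57% for non-germ cells alone and 65.4% of all. In that order CCAAT was in 41.7%, 33.1% and 39.2%, TATAAA in 11.3%, 9.96% and 7.25%, and TGACGTCA in 2.08%, 1.85% and 3.4%. TCACGTG was in 7.44%, 4.41% and 6.32%, and GGCGGGAA in 4.17%, 3.49% and 4.29%. Words this short occur in many promoters, no test was made, and a match is a description of the sequence, not a binding site.

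The 120 bases before the start of 6 genes called higher are shown because they hold the palindromic E-box, printed in capitals, within this stretch; Sycp1, Sycp3, Hormad1 and Tex12 were picked after their values were seen. Ddx4 lies on the minus strand (chr13:112652311-112652430), as do Sycp1 (chr3:102936101-102936220) and Tex12 (chr9:50561269-50561388), 2 genes of the synaptonemal complex, and each holds 1 match. Stk31 (chr6:49395419-49395538) on the plus strand holds 1, and Sycp3 (chr10:88459467-88459586) and Hormad1 (chr3:95559557-95559676), also synaptonemal or axis genes on the plus strand, hold 2 each.
Ddx4: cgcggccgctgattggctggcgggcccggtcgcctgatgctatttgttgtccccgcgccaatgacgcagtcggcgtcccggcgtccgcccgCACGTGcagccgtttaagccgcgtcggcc
Stk31: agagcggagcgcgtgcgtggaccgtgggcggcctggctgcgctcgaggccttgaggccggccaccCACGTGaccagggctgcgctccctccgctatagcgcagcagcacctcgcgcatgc
Sycp1: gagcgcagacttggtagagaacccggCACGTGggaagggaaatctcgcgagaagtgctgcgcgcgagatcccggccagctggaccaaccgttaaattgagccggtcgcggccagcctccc
Sycp3: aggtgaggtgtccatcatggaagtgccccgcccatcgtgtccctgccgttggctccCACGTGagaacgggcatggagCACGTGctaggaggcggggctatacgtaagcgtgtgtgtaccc
Hormad1: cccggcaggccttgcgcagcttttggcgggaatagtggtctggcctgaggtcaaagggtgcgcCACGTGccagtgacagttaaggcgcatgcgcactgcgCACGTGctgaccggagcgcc
Tex12: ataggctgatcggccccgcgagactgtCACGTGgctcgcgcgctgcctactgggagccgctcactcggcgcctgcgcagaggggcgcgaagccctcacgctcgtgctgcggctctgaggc
The match lies 29 bases before the start in Ddx4, 55 in Stk31, 94 in Sycp1 and 93 in Tex12, and at 64 and 43 bases in Sycp3 and 57 and 20 in Hormad1. On the arrays Sycp1 was at least 5.66-fold higher, Sycp3 at least 2.04-fold higher, Hormad1 at least 7.08-fold higher and Tex12 at least 9.03-fold higher.

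**Figure D3:**
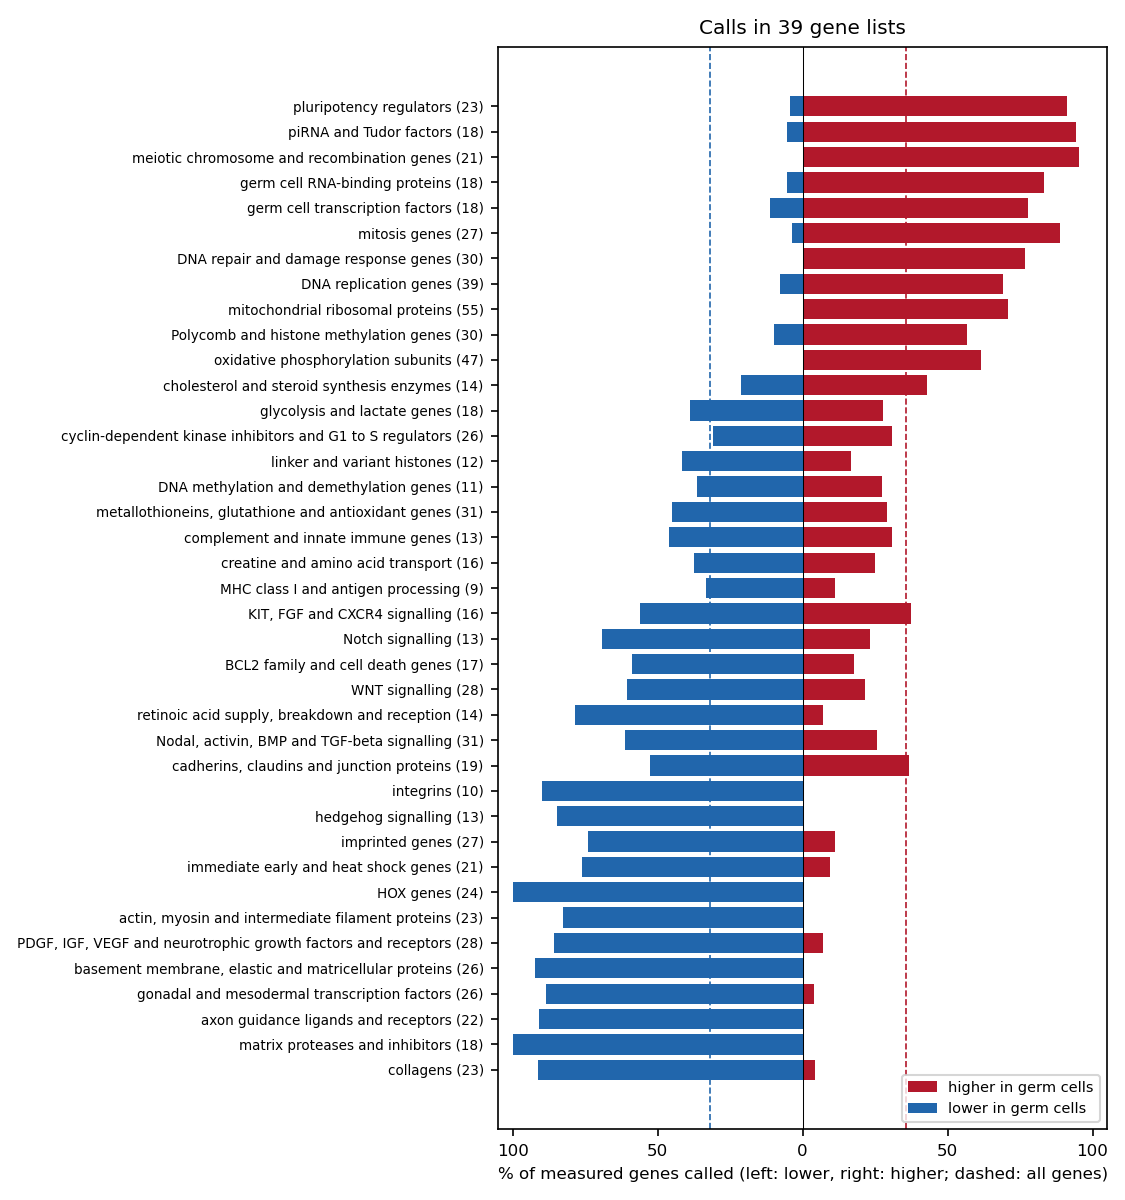
Share of the measured genes of 39 lists (number measured in brackets) that were called higher (red, to the right) or lower (blue, to the left) in E13.5 germ cells relative to non-germ cells, in percent, ordered by the median difference. Dashed lines mark the shares over all genes tested, 35.8% higher and 31.8% lower. Germline lists lie at the top with red bars, and collagens and matrix proteases at the bottom with blue bars.

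For Kit and for Cxcr4 the receptor was higher in germ cells and its ligand lower, and the same held for Fgfr3 with Fgf9, where the call of Fgfr3 depends on 1 array. Kit, the receptor that germ cells need to survive, was at 10.66, 10.47 and 10.79 in germ cells, against 7.84 and 8.48 in non-germ cells (log2 2.48 ± 0.23; adjusted p = 4e-05). Its ligand gene Kitl was at 5.05, 4.85 and 5.06, undetected, in germ cells, against 7.49 and 8.14 in non-germ cells (at least 3.09-fold lower). Cxcr4, the chemokine receptor of migrating germ cells, was at 9.57, 9.72 and 9.55 in germ cells, against 7.62 and 8.53 in non-germ cells (log2 1.54 ± 0.26). Its ligand Cxcl12 was at 6.29, 6.42 and 7.27 in germ cells, against 10.69 and 11.17 in non-germ cells (log2 -4.27 ± 0.31; detected on 2 of 3 germ cell arrays). For these 4 genes the fractions did not overlap. Over KIT, FGF and CXCR4 genes 6 were higher and 9 lower of 16 measured (23 listed). These were 37.5% and 56.25%, against 35.8% and 31.8% of all genes, so the higher share was near that of all genes. The ERK target Etv5 (log2 2.29 ± 0.17) was among the higher. The ligand Fgf10 (at least 3.62-fold lower) was lower with its receptor Fgfr2 (log2 -0.61 ± 0.19), whose call ended without germ cell replicate 2 or either non-germ replicate. Fgf9, which signals from Sertoli cells, was at least 1.47-fold lower, and its receptor Fgfr3 was higher (log2 1.06 ± 0.27; detected on 2 of 3 germ cell arrays; detected on 1 of 2 non-germ arrays), a call that ended without non-germ replicate 1.

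Nodal, a ligand that acts on early embryonic and fetal male germ cells, was at 9.57, 9.78 and 9.77 in germ cells, against an undetected 5.02 and 4.79 in non-germ cells (at least 14.7-fold higher; adjusted p = 3.76e-07). Its inhibitors and targets Lefty1, at 9.91, 9.97 and 10.08 in germ cells, against 4.79 and 5.07 in non-germ cells (at least 17.8-fold higher), and Lefty2 (at least 14-fold higher) were higher too, as were the co-receptor Tdgf1 (at least 3.63-fold higher) and the type I receptor Acvr1b (at least 2.71-fold higher by this probe). The type II receptor Acvr2b did not pass the test, at 9.02, 9.18 and 9.06 in germ cells, against 9.26 and 8.89 in non-germ cells (log2 0.01 ± 0.18, adjusted p = 0.959). Over the whole list of Nodal, activin, BMP and TGF-beta genes the count was 8 higher and 19 lower of 31 measured (40 listed). Tgfb2 (at least 27.3-fold lower), Fstl1 (at least 18.7-fold lower) and the receptor Tgfbr2 (at least 8.24-fold lower) were among the falls.

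Hedgehog genes were 0 higher and 11 lower of 13 measured (15 listed). Dhh, the Sertoli cell ligand, was at 5.24, 5.44 and 5.97 in germ cells, against 8.64 and 9.63 in non-germ cells (at least 7.7-fold lower). The effector Gli2 (at least 8.06-fold lower) and the target Gli1 (at least 2.48-fold lower) were lower too. The receptor Ptch1, at 9.19, 8.82 and 8.69 in germ cells, against 9.26 and 9.37 in non-germ cells, did not pass the test (adjusted p = 0.0973). In the WNT list 6 were higher and 17 lower of 28 measured (39 listed). The ligand Wnt3 was at 8.13, 8.43 and 8.04 in germ cells, against an undetected 4.98 and 4.83 in non-germ cells (at least 5.18-fold higher). The receptors Fzd5 (log2 2.16 ± 0.17) and Fzd3 (log2 1.16 ± 0.23; detected on 1 of 2 non-germ arrays) were also higher, while Wnt5a (at least 37.4-fold lower), Tcf7l2 and Fzd1 (at least 10.6-fold lower) were lower. Notch genes were 3 higher and 9 lower of 13 measured (20 listed). Dll3, a ligand-like inhibitor, was at 8.13, 8.42 and 8.65 in germ cells, against 5.15 and 4.92 in non-germ cells (at least 5.95-fold higher). The ligand Jag1 (log2 -3.46 ± 0.19) and the receptor Notch1 (at least 2.18-fold lower) were lower.

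Growth factors and their receptors sat almost wholly on the somatic side, with 2 higher and 24 lower of 28 measured among 37 listed (median log2 -2.87). Igf2, the fetal growth factor, was at 5.60, 5.59 and 6.49 in germ cells, against 13.10 and 13.10 in non-germ cells (log2 -7.21 ± 0.28; detected on 1 of 3 germ cell arrays), and its receptor Igf1r differed by log2 -2.78 ± 0.21. The VEGF co-receptor Nrp1 (at least 29.5-fold lower) and receptor Kdr (at least 1.72-fold lower) were lower as well. The exception with a single direction over its probes was Ret, the signalling receptor for GDNF in spermatogonial stem cells, at 9.29, 8.78 and 8.35 in germ cells, against 4.63 and 4.60 in non-germ cells, undetected there (at least 7.89-fold higher). The other, Igfbp7 (log2 1.00 ± 0.22), had another probe called the opposite way.

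Axon guidance genes, which also steer vessels and mesenchyme, were 0 higher and 20 lower of 22 measured among 30 listed (median log2 -3.27). The ligand Slit2 was at 4.83, 5.13 and 6.09 in germ cells, against 12.14 and 12.21 in non-germ cells (at least 63.5-fold lower by this probe), and 5 of its probes were kept. With detection on at least 3 arrays, a filter its probe fails, another probe gave a difference of 0.65 (adjusted p = 0.12). The Slit receptor Robo2 was at least 10.5-fold lower, and Robo1, at 11.53, 11.65 and 11.53 in germ cells, against 11.94 and 11.83 in non-germ cells, did not pass (adjusted p = 0.115). Unc5c (at least 53.7-fold lower) and Epha3 (at least 23.1-fold lower), receptors for netrins and ephrins, were lower too.

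Genes of retinoic acid, the signal that starts meiosis and that a fetal testis degrades, were 1 higher and 11 lower of 14 measured (22 listed), and only the call of Rxrb was upward, one that ended with cyclic loess or without either non-germ replicate. The synthesis enzyme Aldh1a1 was at 4.46, 4.56 and 6.27 in germ cells, against 9.77 and 10.47 in non-germ cells (log2 -5.02 ± 0.52; detected on 1 of 3 germ cell arrays). The retinol receptor Stra6 (at least 6.15-fold lower) and the nuclear receptor Rarb, itself a retinoic acid target (at least 4.06-fold lower), were also lower.

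**Figure D4:**
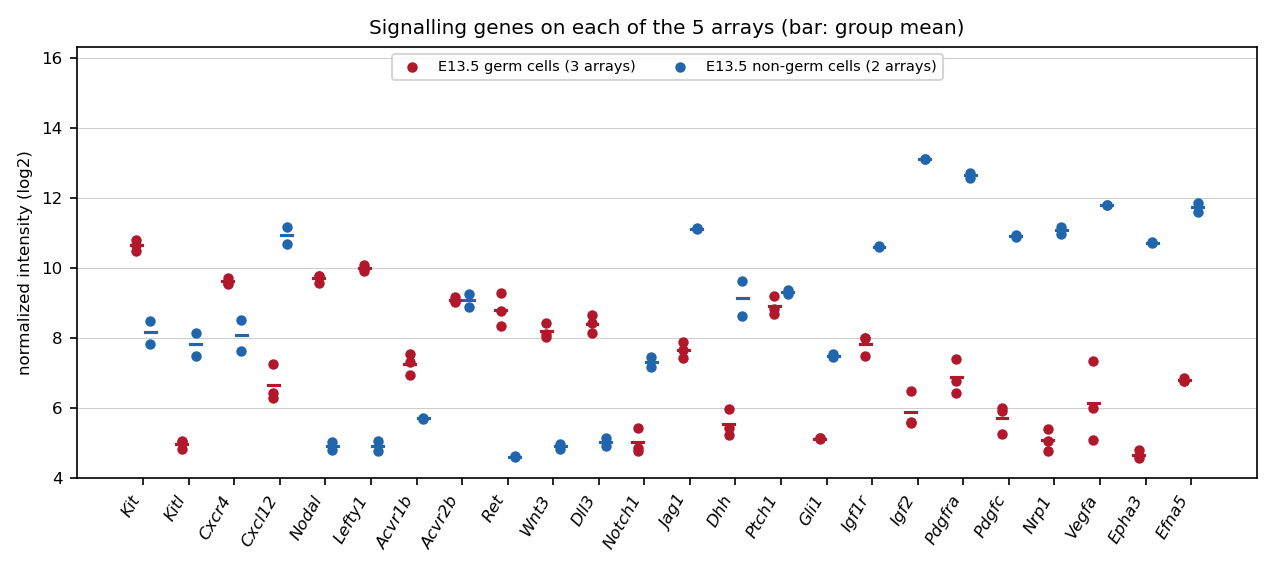
Normalized log2 intensity (vertical axis) of 24 signalling genes on each of the 5 arrays, with E13.5 germ cells in red to the left and E13.5 non-germ cells in blue to the right at each gene, and a bar at each group mean. Kit, Cxcr4, Nodal, Lefty1, Ret, Wnt3 and Dll3 have their red points on top, and Kitl, Cxcl12, Dhh, Igf2 and Efna5 their blue ones. Acvr2b lies at about 9 in both.

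Genes of the extracellular matrix were lower in germ cells almost throughout. Of 23 collagens measured (25 listed), 21 were lower and 1 higher in germ cells (median log2 -4.39), and in 19 no germ cell array detected the probe used. Col1a1, the main fibrillar collagen, was at 5.21, 5.70 and 5.16 in germ cells, against 11.75 and 11.70 in non-germ cells (at least 46.4-fold lower), whereas Col9a3 was the chain that rose. Matrix proteases and their inhibitors were 0 higher and 18 lower of 18 measured (24 listed), among them the procollagen protease Bmp1 (at least 25.9-fold lower), the gelatinase Mmp2 (log2 -5.78 ± 0.24; detected on 2 of 3 germ cell arrays) and the inhibitor Timp2 (log2 -5.72 ± 0.28; detected on 2 of 3 germ cell arrays). Basement membrane, elastic and matricellular proteins were 0 higher and 24 lower of 26 measured (36 listed), with the proteoglycans Lum (at least 58.2-fold lower) and Bgn (at least 58.9-fold lower) and the secreted Ccn1 (log2 -6.97 ± 0.62; detected on 1 of 3 germ cell arrays) among them. Integrins, the receptors for this matrix, were 0 higher and 9 lower of 10 measured (15 listed), of which Itga9 (at least 18.1-fold lower), Itgb8 (at least 4.82-fold lower) and Itga8 (log2 -2.88 ± 0.22; detected on 1 of 3 germ cell arrays) are examples.

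Cadherins, claudins and junction proteins were 7 higher and 10 lower of 19 measured (31 listed). The higher ones were 36.8% of the list, against 35.8% of all genes. Epcam, an epithelial adhesion protein, was at 10.60, 10.55 and 10.50 in germ cells, against 7.36 and 7.15 in non-germ cells (log2 3.29 ± 0.16). The epithelial cadherin Cdh1 was at 10.93, 11.55 and 11.54, against 9.40 and 7.70 (log2 2.79 ± 0.45). The fractions did not overlap for either gene. The mesenchymal cadherin Cdh11 (at least 24.1-fold lower), the gap junction protein Gja1 (log2 -5.51 ± 0.72; detected on 2 of 3 germ cell arrays) and the Sertoli cell claudin Cldn11 (log2 -4.54 ± 0.46; detected on 2 of 3 germ cell arrays) were lower. Actin, myosin and intermediate filament genes were 0 higher and 19 lower of 23 measured (29 listed), among them the actin-binding Tmsb4x at 5.18, 5.03 and 6.15 in germ cells, against 12.19 and 12.47 in non-germ cells (log2 -6.88 ± 0.33; detected on 1 of 3 germ cell arrays), Cald1 (at least 20.8-fold lower by this probe) and Myl9 (at least 13.8-fold lower).

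HOX genes, which give mesoderm its position along the body, were all lower where measured: 24 of 24, of 32 listed (median log2 -2.31), and 18 of them were undetected in germ cells. Hoxd9 was at 6.39, 5.39 and 6.59 in germ cells, against 12.57 and 12.78 in non-germ cells (log2 -6.55 ± 0.34; detected on 2 of 3 germ cell arrays). Hoxb3 (at least 48.2-fold lower) and Hoxd10 (log2 -6.27 ± 0.39; detected on 1 of 3 germ cell arrays) are further examples. Gonadal and mesodermal transcription factors were 1 higher and 23 lower of 26 measured (37 listed). Nr2f2, a nuclear receptor of interstitial cells, was at 4.54, 4.69 and 4.92 in germ cells, against 10.91 and 11.15 in non-germ cells (at least 28.7-fold lower). Meis1 (log2 -5.95 ± 0.17; detected on 2 of 3 germ cell arrays) and Foxc2 (at least 19.2-fold lower) were lower as well. Six4 alone rose, at 9.79, 9.60 and 9.57 in germ cells, against 6.29 and 6.19 in non-germ cells (log2 3.42 ± 0.17). Imprinted genes, whose parental marks germ cells erase, were 3 higher and 20 lower of 27 measured (32 listed). The deiodinase Dio3 (at least 6.64-fold higher) and the deubiquitinase Usp29 (at least 5.85-fold higher by this probe) rose, as did Phlda2, whose call ended under cyclic loess, and Igf2, Dlk1 and the proteoglycan Dcn (at least 31-fold lower) were among the falls.

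Genes of division were higher in germ cells. Mitosis genes numbered 24 higher and 1 lower of 27 measured among 30 listed (median log2 1.63). The checkpoint gene Mad2l1 was at 10.38, 10.36 and 10.42 in germ cells, against 7.02 and 7.86 in non-germ cells (log2 2.95 ± 0.25). The separase Espl1 was higher (log2 2.88 ± 0.21; detected on 1 of 2 non-germ arrays), and Cenpf, of the kinetochore, was at least 5.35-fold higher. Those of DNA replication numbered 27 higher and 3 lower of 39 measured (40 listed), with the initiator Mcm10 (log2 2.10 ± 0.18), the licensing inhibitor Gmnn (log2 1.95 ± 0.29) and Orc1 (at least 2.91-fold higher) among the higher. DNA repair genes were 23 higher and 0 lower of 30 measured (35 listed), among them Fancd2 of the Fanconi pathway (log2 2.88 ± 0.23; detected on 1 of 2 non-germ arrays), Rad50 (log2 2.44 ± 0.16) and Rad51c (log2 2.06 ± 0.25).

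Cell cycle inhibitors and cyclins were called in both directions. Among 26 measured of 31 listed inhibitors and regulators of entry into S phase 8 were higher and 8 lower. These were 30.8% each way, near the 35.8% higher and 31.8% lower of all genes. The inhibitor locus Cdkn2a was at 9.38, 9.62 and 9.62 in germ cells, against an undetected 5.02 and 4.79 in non-germ cells (at least 13.1-fold higher). The retinoblastoma gene Rb1 was at 11.65, 11.21 and 11.20, against 9.21 and 9.38 (log2 2.06 ± 0.20). The D cyclins Ccnd2, at 5.13, 5.86 and 5.69 in germ cells, against 10.39 and 10.23 in non-germ cells (at least 17.4-fold lower by this probe), and Ccnd1 (log2 -2.77 ± 0.27) were lower, and so was the stress gene Gadd45g (at least 4.61-fold lower by this probe).

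The genes of the mitochondrial lists were called higher or not at all, except under cyclic loess. Mitochondrial ribosomal proteins were 39 higher and 0 lower of 55 measured among 57 listed (median log2 0.82), led by Mrpl15 (log2 2.16 ± 0.16), Mrpl35 (log2 2.11 ± 0.19) and Mrpl44 (log2 1.88 ± 0.20); cyclic loess gave 29 higher and 3 lower. Subunits of oxidative phosphorylation were 29 higher and 0 lower of 47 measured among 52 listed (median log2 0.56), which fell to 15 higher with cyclic loess and 17 without non-germ replicate 1 at the same probes. Cox5a, of complex IV, was at 11.26, 11.21 and 11.38 in germ cells, against 9.28 and 9.15 in non-germ cells (log2 2.07 ± 0.16), with no overlap. Glycolysis genes had no common direction (5 higher and 7 lower of 18 measured, 24 listed). Their shares were 27.8% higher and 38.9% lower, against 35.8% and 31.8% of all genes. The glucose transporter Slc2a3 (log2 1.83 ± 0.22) and the pyruvate dehydrogenase kinases Pdk3 (log2 1.30 ± 0.22) and Pdk1 (log2 1.12 ± 0.17) were higher. Lower were Eno2 (at least 25.4-fold lower), Ldha (log2 -2.81 ± 0.23) and Tpi1 (log2 -2.21 ± 0.18). Cholesterol and steroid enzymes were 6 higher and 3 lower of 14 measured (22 listed), or 42.9% and 21.4%, against 35.8% and 31.8% of all genes. The isoprenoid enzyme Idi1 (log2 1.33 ± 0.22) was on one side and the androgen enzyme Cyp17a1 (at least 10.5-fold lower) on the other.

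Chromatin genes were called in both directions. For Polycomb and histone methylation the count was 17 higher and 3 lower of 30 measured (37 listed), with Cbx7 (at least 3.76-fold higher), the H3K9 methyltransferase Suv39h2 (log2 2.14 ± 0.21) and Pcgf6 (log2 2.00 ± 0.20) among the higher; 11 were higher under cyclic loess and 10 without non-germ replicate 1 at the same probes. DNA methylation genes numbered 3 higher and 4 lower of 11 measured (18 listed). These were 27.3% and 36.4%, near the 35.8% and 31.8% of all genes. The lower count was 2 with a replicate block or without germ cell replicate 2 or 3, and it also fell without either non-germ replicate. Tet1, which oxidises methylcytosine, was at 9.84, 9.38 and 9.64 in germ cells, against 6.80 and 6.55 in non-germ cells (log2 2.95 ± 0.20), and Mbd1 was lower (log2 -1.81 ± 0.20). The methyltransferase Dnmt3a (log2 -3.59 ± 0.23) had another probe called the opposite way, as had Mbd2, given above, and Zbtb33 (log2 -0.55 ± 0.20). Among 12 measured of 17 listed linker and variant histones 2 were higher and 5 lower. These were 16.7% and 41.7%, against 35.8% and 31.8% of all genes. The linker histone H1f2, at 9.57, 9.57 and 10.26 in germ cells, against 11.58 and 12.01 in non-germ cells, was lower. Macroh2a2 (log2 -1.48 ± 0.23) was lower too.

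Stress and death genes also differed. For immediate early and heat shock genes the count was 2 higher and 16 lower of 21 measured (24 listed). Fosl2 was at 4.79, 4.95 and 5.45 in germ cells, against 11.26 and 11.27 in non-germ cells (at least 33.7-fold lower). Fosb (log2 -5.72 ± 0.43; detected on 2 of 3 germ cell arrays) and Egr3 (at least 14.3-fold lower) were lower too. The heat shock genes Hsph1 and Dnajb1 were the higher pair, in calls that ended without non-germ replicate 2. With cyclic loess or a replicate block only 1 gene of the list was called higher. BCL2 family and cell death genes were 3 higher and 10 lower of 17 measured (25 listed). The BH3-only genes Pmaip1, at 8.01, 8.33 and 8.12 in germ cells, against an undetected 5.08 and 5.25 in non-germ cells (at least 5.01-fold higher), and Bik (at least 2.97-fold higher) rose, and the survival gene Bcl2 (at least 7.68-fold lower) and the death gene Bok (at least 5.22-fold lower) were lower. Bid (log2 2.20 ± 0.19; detected on 1 of 2 non-germ arrays) had another probe called the opposite way.

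Among antioxidant genes 9 were higher and 14 lower of 31 measured (38 listed). These were 29.0% and 45.2%, against 35.8% and 31.8% of all genes. The glutathione transferase Mgst2 was at 9.51, 9.77 and 9.41 in germ cells, against an undetected 5.67 and 5.60 in non-germ cells (at least 13.3-fold higher). Both subunits of glutathione synthesis, Gclm (log2 3.31 ± 0.58; detected on 1 of 2 non-germ arrays) and Gclc (at least 2.46-fold higher), were higher. The peroxidases Gpx8 (at least 48.5-fold lower) and Gpx7 (at least 9.57-fold lower) and the transferase Mgst1 (at least 8.47-fold lower) were lower. Complement and innate immune genes were 4 higher and 6 lower of 13 measured (28 listed), or 31% and 46%, against 35.8% and 31.8% of all genes. Irf1 (log2 2.51 ± 0.24) and the germ cell surface genes Ifitm3 (log2 1.90 ± 0.19) and Ifitm1 (log2 1.65 ± 0.18) were on the germ cell side. The receptor Il1r1 (at least 15.1-fold lower) was on the other. MHC class I genes were 1 higher and 3 lower of 9 measured (16 listed), or 11.1% and 33.3%, against 35.8% and 31.8% of all genes. With cyclic loess the counts were 0 and 6. The higher call also ended without scaling, with all 11 arrays, with the authors' rescaled values and with no detection filter. It ended too with another variance model, with a replicate block, without germ cell replicate 2 or 3 and without either non-germ replicate. B2m, the light chain, was at 6.30, 6.20 and 6.31 in germ cells, against 10.66 and 10.93 in non-germ cells (log2 -4.53 ± 0.17; detected on 2 of 3 germ cell arrays). Creatine and amino acid transport genes were 4 higher and 6 lower of 16 measured (21 listed), or 25% and 37.5%, against 35.8% and 31.8% of all genes. The creatine kinases Ckmt2 (log2 1.91 ± 0.27; detected on 1 of 2 non-germ arrays) and Ckb (log2 1.67 ± 0.25) were higher. The glutamate transporter Slc1a3 (at least 20.5-fold lower) and the creatine enzyme Gatm (log2 -3.78 ± 0.57; detected on 2 of 3 germ cell arrays) were lower.

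Marker lists, again over the genes that passed the filter, describe both fractions. All 18 germ cell markers were higher in germ cells, and their mean level was 10.60, 10.52 and 10.41 on the germ cell arrays, against 5.62 on both non-germ arrays, with 12 of the 18 undetected there. The 18 include Pou5f1, whose reporter defined the sort. Interstitial and mesenchymal markers were 0 higher and 14 lower of 15 measured among 20 listed (means 5.96, 5.97 and 6.15, against 10.94 and 10.99), and 10 were undetected in germ cells. Sertoli cell markers were 17 lower and 1 higher of 19 measured (22 listed), Etv5 being the one that rose. Amh, the Sertoli cell hormone, named after its values were seen, was near background even in non-germ cells, at 5.62, 5.02 and 5.06 in germ cells, against 5.89 and 5.89 in non-germ cells. Endothelial markers were 8 lower of 9 measured (16 listed), and Pecam1, which germ cells are also known to carry, rose (log2 2.07 ± 0.54). Smooth muscle markers were 5 lower and 0 higher of 7 measured (10 listed), among them Pdgfrb (at least 2.71-fold lower). Of 7 listed markers of ovarian somatic cells 3 were measured and 2 were lower. These were Wnt4 (at least 5.08-fold lower) and Rspo1, near background at 6.21 and 6.18 in non-germ cells (at least 1.00-fold lower). The lower count was 1 with the authors' rescaled values and 0 with detection on at least 3 arrays. Among mesonephric and epithelial markers the count was 3 higher and 6 lower of 9 measured (13 listed). These were 33.3% and 66.7%, against 35.8% and 31.8% of all genes. Epcam, Cdh1 and the LIM factor Lhx1 (log2 2.57 ± 0.19) rose, and Emx2 (at least 14.7-fold lower), Krt18 (at least 10.8-fold lower) and Upk3b (at least 6.75-fold lower) were lower.

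The 2 non-germ arrays differed in the markers of several cell types. The mean over erythroid markers was 5.88, 6.14 and 6.04 in germ cells, against 11.92 and 9.65 in non-germ replicates 1 and 2. Of 8 measured (12 listed), 7 were called lower. Fetal Leydig markers averaged 6.56, 6.25 and 6.59 in germ cells, against 8.38 and 9.42 in the non-germ replicates, so that replicate 2 was the higher. Of 6 measured (12 listed), 4 were lower and 1 higher in germ cells. Insl3, the hormone of Leydig cells, was at an undetected 4.58, 4.61 and 5.22 in germ cells, against 5.84 and 8.75 in non-germ cells (at least 2.15-fold lower), and its call ended in a fit of all 11 arrays. The steroid transport gene Star was higher in germ cells, at 8.97, 8.74 and 8.75, against 8.25 and 7.91 in non-germ cells (log2 0.74 ± 0.18), a call that ended with cyclic loess or without non-germ replicate 2. Endothelial markers averaged 5.92, 5.73 and 5.65 in germ cells, against 7.35 and 8.38 in non-germ replicates 1 and 2. Leukocyte markers averaged 5.15, 4.94 and 5.21 in germ cells, against 6.31 and 7.32 in the non-germ replicates. Of 5 leukocyte markers measured (12 listed), 4 were lower in germ cells, Mrc1 (at least 2.66-fold lower) among them. The part of these differences in the spread of other somatic genes was not tested.

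**Figure D5:**
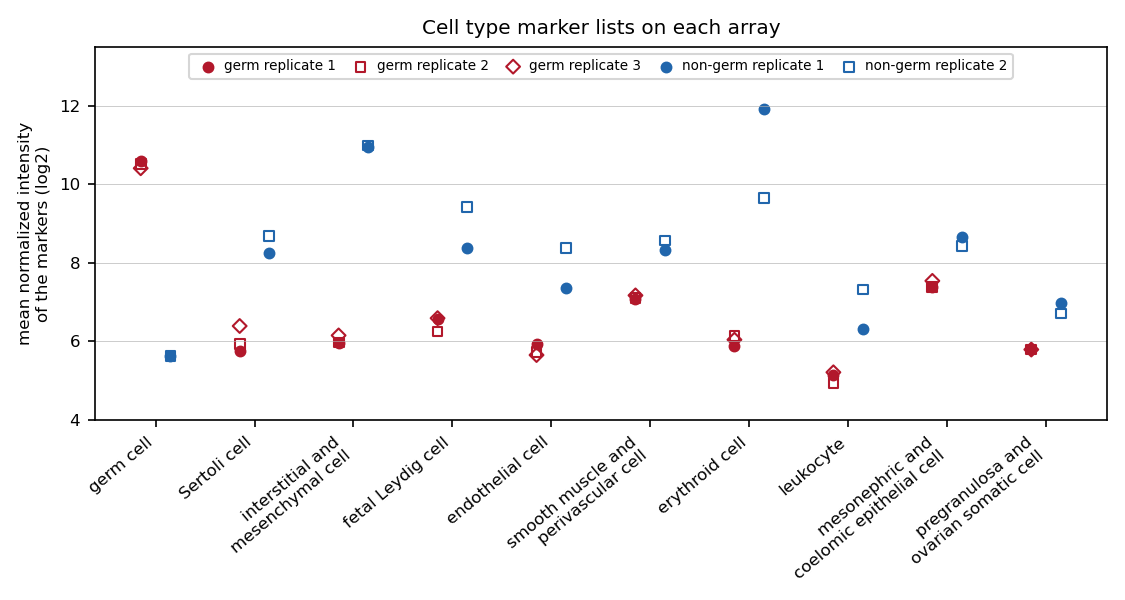
Mean normalized log2 intensity (vertical axis) over the measured markers of 10 cell types on each array, with the 3 E13.5 germ cell arrays in red to the left and the 2 E13.5 non-germ arrays in blue to the right, and a symbol for each replicate. Erythroid markers lie at 11.92 and 9.65 on the non-germ arrays, whereas germ cell and interstitial markers are nearly level between them.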

How the data were processed

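The authors' deposited table holds linear probe intensity values without background subtraction or scaling, and a detection p-value per probe and array, per the file headers. Per the labels' protocols, RNA of the sorted cells passed an integrity check and was amplified, biotin-labelled and hybridised to 1-colour Illumina BeadChips; the image software is not given in the sources used here. A second deposited table holds intensity values rescaled by the authors (medians 326, 331 and 329 for germ cells, 322 and 319 for non-germ cells) and served as an alternative.

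Values of the 5 arrays were corrected with limma 3.58.1 (R 4.3.3; nec, background inferred from detection p, offset 16), put on the log2 scale and quantile-normalized. Of 45281 probes, 34885 had 1 symbol, 18 several and 10378 none, and 99.8% of the named ones were matched to RefSeq by Entrez ID. The kept probe with the highest mean stood for a gene; 3915 genes had more than 1, and for 166 called genes another probe was called the opposite way. LmFit and eBayes gave 2-sided p-values, adjusted by Benjamini-Hochberg over 10468 genes; the code was tested on simulated data. The p-values measure the spread between these arrays. The unadjusted p was below 0.05 for 7380 genes. Genes were named by rule: the 12 largest rises and falls detected throughout, the 10 largest lower bounds each way, up to 3 each way per list, both genes of ligand and receptor pairs, and 5 markers. Members and lists were chosen with earlier results of these data known. Lower bounds set the mean of the detecting group against, per array of the other, the higher of the probe's own value and the lowest detected one. Promoters were searched on both strands for the E-box CACGTG, the longer TCACGTG that contains it, the E-box CACCTG, the GC box GGGCGG, the CCAAT box, the TATA box TATAAA, the E2F-like TTCCCGC and its overlapping reverse form GGCGGGAA, and the CRE site TGACGTCA. Alternatives covered scaling, offset, filter, probe choice, variance model, all 11 arrays, the replicate block and left-out arrays.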

Additional observations from a re-analysis of the deposited data

Results flagged for a closer look

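Some probes that no comparison above uses, because they carry no single gene symbol, were detected in germ cells and not in the non-germ cells. Of the 3296 such probes kept by the detection filter, 155 (4.7%) were detected on all 3 germ cell arrays and on neither non-germ array, against 4.05% of the genes tested, and 426 (12.9%) on both non-germ arrays and on no germ cell array, against 13.2%. Limma called 998 of the 3296 higher (30.3%) and 843 lower (25.6%) in germ cells, against 35.8% and 31.8% of the genes tested. Both detection shares lay near those of the genes, while both call shares were lower. Detection of a gene was counted over any of its probes, so the shares are not fully alike. The differences were not tested. Groups of 3 and 2 arrays are too small to test for a single outlying array.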

How the results depend on the processing

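The counts of genes higher or lower in germ cells, with or without the 2-fold minimum, stayed within 1.5 times the reported ones under most of the 17 alternatives. The authors' rescaled values gave 731 genes at least 2-fold higher and 784 lower, and detection on at least 3 arrays gave 2012 lower and 1218 at least 2-fold lower. Leaving out 1 array at a time gave 2956 to 3675 higher, 1543 to 3337 lower, 2111 to 2195 at least 2-fold higher and 1200 to 2396 at least 2-fold lower. The lone non-germ array was then assumed to vary like the germ cell arrays, and the filter shortened the list of genes to 8995 without non-germ replicate 1 and 8984 without replicate 2. A replicate block gave 3470 higher and 3145 lower; same-numbered arrays did not deviate together (correlations -0.034 and -0.091), so the numbers are not taken to pair the samples. Slide as a block was not run, since the headers name no slide. Without scaling between arrays the median of all genes moved by -0.148.

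Of 247 genes followed, 215 kept their direction and side of the threshold in every setting that measured them, and 5 changed sign in some. Only 176 of the 247 were measured with detection on at least 3 arrays. The same number was measured without non-germ replicate 1, and without replicate 2, under the filter. The remaining genes were not tested in those settings. Acvr2b, not called in any case, moved to -0.27 with cyclic loess, -0.080 without scaling, -0.03 without germ cell replicate 2 and -0.18 without non-germ replicate 2. Slit2 became 0.65 with detection on at least 3 arrays, 0.99 without non-germ replicate 1 and 0.32 without replicate 2, in each case through another probe, and leaving out any 1 array gave -7.19 to 0.99. With the mean over a gene's probes, H3f3a became 0.20, Rrm1 0.19 and Igfbp7 -0.051. In 45 of 49 lists some count moved by more than 1.5 times in some setting. With 3 and 2 arrays, the number of arrays limits the precision, and genes near background have only bounds.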

Other observations

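Part of the X chromosome was seen in germ cells alone. Of 379 X-linked genes tested, 35 (9.23%) were detected on all 3 germ cell arrays and on neither non-germ array, against 4.05% of all genes, while 33.5% were called higher and 38.3% lower, against 35.8% and 31.8% of all genes. The 3 X-linked genes with the highest lower bounds, picked after their values were seen, were Usp26 (at least 32.9-fold higher), 8030474K03Rik and Dmrtc1c1 (at least 23.1-fold higher). No test of the difference between chromosomes was made.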
